A study of Homo sapiens with 18 samples.

Results

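M1B26 cells that carried CD10 on their membrane (CD10+) were compared with M1B26 cells that did not (CD10-). The comparison rested on the labels of 4 of the 18 arrays in the series, 2 of CD10+ and 2 of CD10- cells, and covered 12171 tested genes of 19775 with a probe set of their own. M1B26 is a transformed derivative of MCF10A, an immortalised human mammary epithelial line. MCF10A cells sorted for the BMP receptor BMPR1B were exposed to BMP2, a bone morphogenetic protein, and to the inflammatory cytokine IL6, and 3 clones picked from soft agar were expanded under both factors, so the line stems from few founders. IL6 was given at 10 ng/ml, while 2 doses of BMP2, 5 and 10 ng/ml, stand in the labels. CD10+ and CD10- cells shared this treatment and were separated by flow cytometry. For comparison there were 2 arrays of unsorted M1B26 cells, 6 arrays of MC26 (MCF10A exposed to BMP2 and IL6 at the same doses, with no BMPR1B sort) and 6 of MCF10A-CT, the control without BMP2 and IL6. MC26 and MCF10A-CT were likewise measured as CD10+, CD10- and unsorted cells, 2 arrays each.

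CD10, or neprilysin, is a zinc-dependent endopeptidase of the cell surface that cuts small signalling peptides, and in the breast it marks basal and myoepithelial cells. Epithelial cells are held to each other by adherens junctions, tight junctions and desmosomes, and to the underlying matrix by hemidesmosomes. In an epithelial-mesenchymal transition, transcription factors of the ZEB, SNAI and TWIST families lower junction genes, and the cells make interstitial matrix in their place. ZEB1 and ZEB2 bind E-box sequences in the promoters of epithelial genes, and they are themselves held down by microRNAs of the miR-200 family and by miR-205.

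The sequences of these elements are shown first, since the results below return to the microRNA loci and to genes whose promoters hold the E-box. All come from RefSeq (build GRCh38.p14). The mature microRNAs, with the seed (bases 2 to 8, which pairs with target transcripts) in capitals, each have a seed of their own. The first 2 lie beside each other on the plus strand of chromosome 12, at chr12:6963742-6963764 and chr12:6964155-6964176, in the locus of the host transcript MIR200CHG, and the third lies on the plus strand at chr1:209432166-209432187.
hsa-miR-200c-3p: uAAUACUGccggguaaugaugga
hsa-miR-141-3p: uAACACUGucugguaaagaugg
hsa-miR-205-5p: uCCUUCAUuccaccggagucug

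The promoters below are shown for the ZEB-type E-box, searched as CACCTG and, for the other strand, CAGGTG, in the 250 bases before each gene's start. Capitals mark the matches. CRB3, which encodes a Crumbs protein of the apical membrane, held 5 matches, beginning 228, 208, 147, 89 and 60 bases before the start. Only 26 of the 35116 promoter windows in the RefSeq table held 5 or more. MIR200CHG held 1 match at 78 bases, CDS1, a CDP-diacylglycerol synthase of phospholipid synthesis, 1 at 27 bases, and S100A14, a calcium-binding protein of epithelia, 1 at 14 bases, each within the 120 bases printed. They lie at chr19:6464021-6464270 (plus strand), chr12:6963125-6963244 (plus strand), chr4:84583007-84583126 (plus strand) and chr1:153616326-153616445 (minus strand). A match is a description of the letters and not evidence of binding.
CRB3: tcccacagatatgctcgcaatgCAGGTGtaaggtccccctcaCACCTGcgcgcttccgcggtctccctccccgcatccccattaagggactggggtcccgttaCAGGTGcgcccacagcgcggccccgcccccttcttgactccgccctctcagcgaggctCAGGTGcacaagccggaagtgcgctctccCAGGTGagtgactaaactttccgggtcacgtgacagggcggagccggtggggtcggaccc
MIR200CHG: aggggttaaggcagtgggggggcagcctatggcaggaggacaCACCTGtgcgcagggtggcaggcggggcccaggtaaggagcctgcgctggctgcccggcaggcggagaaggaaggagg
CDS1: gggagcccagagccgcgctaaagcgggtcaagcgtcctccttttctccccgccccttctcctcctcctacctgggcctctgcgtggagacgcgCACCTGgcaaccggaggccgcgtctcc
S100A14: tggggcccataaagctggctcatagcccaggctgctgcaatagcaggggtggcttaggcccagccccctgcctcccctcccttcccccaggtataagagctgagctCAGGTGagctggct

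Expression was read as linear intensity on Affymetrix U133 Plus arrays and analysed as log2(intensity + 1). The background level was an intensity of 14.3 (log2 3.93), the median over probe sets. A gene with a group mean at or under it is called near background there, and its fold is then given as at least the distance from the brighter mean to that level. A gene is said to have risen or fallen in CD10+ cells where limma's Benjamini-Hochberg adjusted p was under 0.05. Errors after ± are standard errors of the log2 difference, with n = 2 arrays per group throughout. The spread behind them was estimated within the 9 groups of all 18 arrays and not from the 4 compared arrays alone. The p-values measure only this spread between arrays, since the labels call the replicates biological without saying how they were grown. Over all 18 arrays every pair correlated at 0.901 or above, the 2 CD10+ M1B26 arrays at 0.949 and the 2 CD10- arrays at 0.944. In a bulk array, fewer cells of a type and less RNA per cell cannot be told apart.

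MME, the gene of CD10 by which the cells were sorted, gave the check of the labels. Its intensity was 1269 and 1021 in CD10+ cells, against 56.4 and 15.9 in CD10- cells. The groups did not overlap, and the 2 CD10- arrays differed from each other more than the 2 CD10+ arrays did. The difference was 5.19 ± 0.64 on the log2 scale (36.5-fold, adjusted p = 1.28e-04). Since the sort chose cells on this protein, it is no finding of the comparison. BMPR1B, used to found the line, had 127 and 97.9 in CD10+ cells, against 167 and 136 in CD10- cells, a difference of -0.43 that did not pass (adjusted p = 0.421).

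In all, 791 genes differed, which is 6.5% of the genes tested. Of these 458 rose in CD10+ cells (3.76%) and 333 fell (2.74%), 376 and 277 of them by at least 2-fold (5.37% of the genes tested, both directions together), and 51 and 25 by at least 8-fold. The median difference over all tested genes was 0.008. Gene lists below are counted over their tested members, and 0 to 9 members of a list lay under the filter on low values. The 4 arrays stood apart without overlap in all 791 genes, as they did in 53.7% of the genes tested. At an unadjusted p under 0.05 there were 2361 genes. Deviations of the CD10+ and CD10- arrays of a replicate number correlated at only 0.185 in M1B26, against 0.635 in MCF10A-CT and 0.361 in MC26. With that pairing in the model on the 12 sorted arrays the count was 2564 (21.1%), among them all 791. Of the 2564 genes 1487 were higher (12.2%) and 1077 lower (8.85%). That model left 3 residual degrees of freedom and an infinite prior, so that genes of like level shared 1 spread. Without the pairing the 12 sorted arrays gave 867 genes, and the pairing on all arrays gave 1150. Below, "with the pairing" means the fit with 2564 genes, whose passes and small p-values rest on the shared spread as well as the pairing. How much each added for a single gene was not tested. Every list count below stands against the shares over all tested genes, 6.5% in the main fit and 21.1% with the pairing. A count near those shares says nothing particular about its list. With arrays centred on their tested genes the split was 443 higher and 533 lower, and after quantile normalisation 461 and 481. Leaving out CD10+ replicate 1 or 2 gave 369 or 379 genes, and leaving out CD10- replicate 1 or 2 gave 600 or 383. Of the 791 genes, 254 passed under each of these 4 omissions. For a named gene that did not, the highest adjusted p among the 4 follows as "up to" that value, with the array left out.

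**Figure D1:**
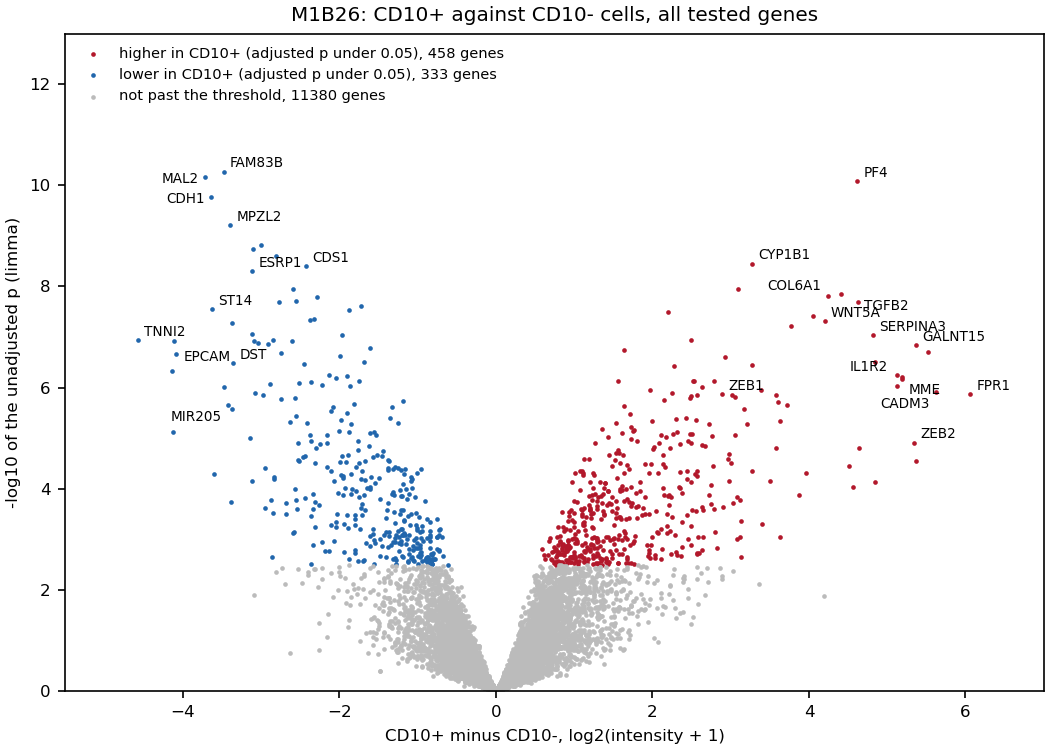
Each point is 1 of the tested genes, with the CD10+ minus CD10- difference in M1B26 on the horizontal axis (log2 of intensity plus 1) and -log10 of the unadjusted limma p on the vertical axis. Red points are the 458 genes that rose, blue points the 333 that fell and grey points those that did not pass. FPR1 lies farthest to the right at 6.06, and FAM83B, MAL2, CDH1 and PF4 have the smallest p.

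Several genes of cell-cell adhesion fell. CDH1, which encodes E-cadherin, the defining protein of epithelial adherens junctions, had 39.6 and 54.2 in CD10+ cells, against 481 and 718 in CD10- cells. Every CD10- array was thus far above both CD10+ arrays, and the gene fell by 3.64 ± 0.24 on the log2 scale (12.4-fold, adjusted p = 5.07e-07). Of the 12 cadherins, catenins and nectins tested, 4 fell, 3 rose and 5 did not pass (median difference -0.37). CDH3, or P-cadherin, the cadherin of basal epithelium, had 335 and 408 in CD10+ cells, against 1115 and 1274 in CD10- cells, and fell by 1.69. CDH2, or N-cadherin, which mesenchymal cells use, went the other way. It had 817 and 680 in CD10+ cells, against 215 and 85.6 in CD10- cells, and rose by 2.45 ± 0.45 (adjusted p = 0.00313, up to 0.0665 without CD10- replicate 2). CDH11, another cadherin of the list, had 33.0 and 26.4 in CD10+ cells, against 106 and 116 in CD10- cells. Its difference of -1.88 passed with the pairing only (adjusted p = 0.0231, and 0.0506 in the main fit). Nectins, adhesion molecules of the immunoglobulin family, split as well, with NECTIN1 lower by 1.75 and NECTIN3 higher by 1.58. NECTIN2 was higher by 1.00 (adjusted p = 0.0333, up to 0.289 without CD10+ replicate 2) and the plakoglobin gene JUP lower by 1.14 (adjusted p = 0.00586, up to 0.0619 without CD10+ replicate 1).

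Desmosomes, which anchor keratin filaments at cell-cell contacts, were lower as a group. Of the 8 genes tested 7 fell and none rose (median -1.56), while DSG2 had a difference of -0.46 that did not pass (adjusted p = 0.179). The plakophilin PKP2, a plaque protein, had 93.1 and 93.8 in CD10+ cells, against 503 and 472 in CD10- cells, and fell by 2.37 ± 0.24 (adjusted p = 2.18e-05). Its replicates agreed closely within each group. The desmosomal cadherin DSG3 had 142 and 103 in CD10+ cells, against 484 and 464 in CD10- cells, and fell by 1.96. DSP, or desmoplakin, which ties the plaque to keratin, had 1491 and 1676 in CD10+ cells, against 4701 and 4965 in CD10- cells, a fall of 1.61 ± 0.18. It therefore stayed among the brighter genes in CD10+ cells. PKP3 and the desmocollin DSC3 fell by 1.56 and 1.57, and DSC2 and PERP by 1.19 (up to 0.162 without CD10+ replicate 2) and 0.73 (up to 0.13 without CD10+ replicate 2). Of 8 keratins tested, KRT8 rose by 0.94 (adjusted p = 0.0287, up to 0.222 without CD10+ replicate 2), its filament partner KRT18 fell by 0.90 (adjusted p = 0.00644, up to 0.0668 without CD10+ replicate 2) and 6 did not pass. With the pairing 1 rose and 3 fell. The basal keratin KRT14 had 1680 and 1015 in CD10+ cells, against 6210 and 2563 in CD10- cells, a difference of -1.61 ± 0.56 that passed with the pairing only (adjusted p = 2.56e-15), as did KRT15, with 25.6 and 15.1 in CD10+ cells, against 34.3 and 47.9 in CD10- cells (adjusted p = 4.93e-04). KRT5, the partner of KRT14 in basal cells, had -0.42 and passed in neither fit.

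Of 19 tested genes listed under tight junctions and apical polarity, 8 fell, 1 rose and 10 did not pass (median -0.99). The list was broad, so that the falls include genes outside these structures, such as CDS1 of phospholipid synthesis. A further 6 members, the claudins CLDN3 and CLDN4 among them, lay under the filter on low values. CRB3, whose promoter is printed above, had 23.4 and 14.1 in CD10+ cells, against 90.6 and 87.3 in CD10- cells, and fell by 2.23 ± 0.28 (adjusted p = 1.54e-04). One CD10+ array thus lay at the background level. Tricellulin, encoded by MARVELD2 and found where 3 cells meet, had 83.0 and 66.0 in CD10+ cells, against 393 and 264 in CD10- cells, and fell by 2.10. Its relative MARVELD3 was near background in CD10+ cells at 10.1 and 7.72, against 86.2 and 118 in CD10- cells (at least 6.68-fold lower, adjusted p = 2.26e-05). MAL2, a protein of transport to the apical membrane, fell by 3.72 ± 0.23 (adjusted p = 3.32e-07), MAP7, a microtubule-binding protein of epithelia, by 2.77, CDS1 by 2.42 ± 0.20 (adjusted p = 4.73e-06), the motor MYO5B by 1.67 and the scaffold PATJ by 0.99 (up to 0.161 without CD10+ replicate 1). CLDN7 was the exception, a claudin that rose by 1.30 (up to 0.224 without CD10- replicate 1). For PATJ another probe set gave 0.27.

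At the basal side, the hemidesmosome genes ITGA6, ITGB4 and DST fell, 3 of the 6 tested, with none higher (median -0.72). With the pairing CD151, a tetraspanin that binds laminin receptors, was also higher (0.64, adjusted p = 0.00997). The integrin chain ITGA6 had 1019 and 1070 in CD10+ cells, against 5566 and 4634 in CD10- cells, and fell by 2.28 ± 0.21 (adjusted p = 1.23e-05). Its partner ITGB4 fell by 1.46 (adjusted p = 0.0277, up to 0.189 without CD10+ replicate 2). DST, which links that integrin to keratin, had 129 and 150 in CD10+ cells, against 1481 and 1389 in CD10- cells, and fell by 3.36 on its brightest probe set, whereas 3 other probe sets of DST gave differences of 0.63, 0.37 and 0.0527. The gene makes several long isoforms, and the probe sets were read separately. LAMB3 and PLEC, both of the same structure, had differences of 0.04 and 0.02.

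**Figure D2:**
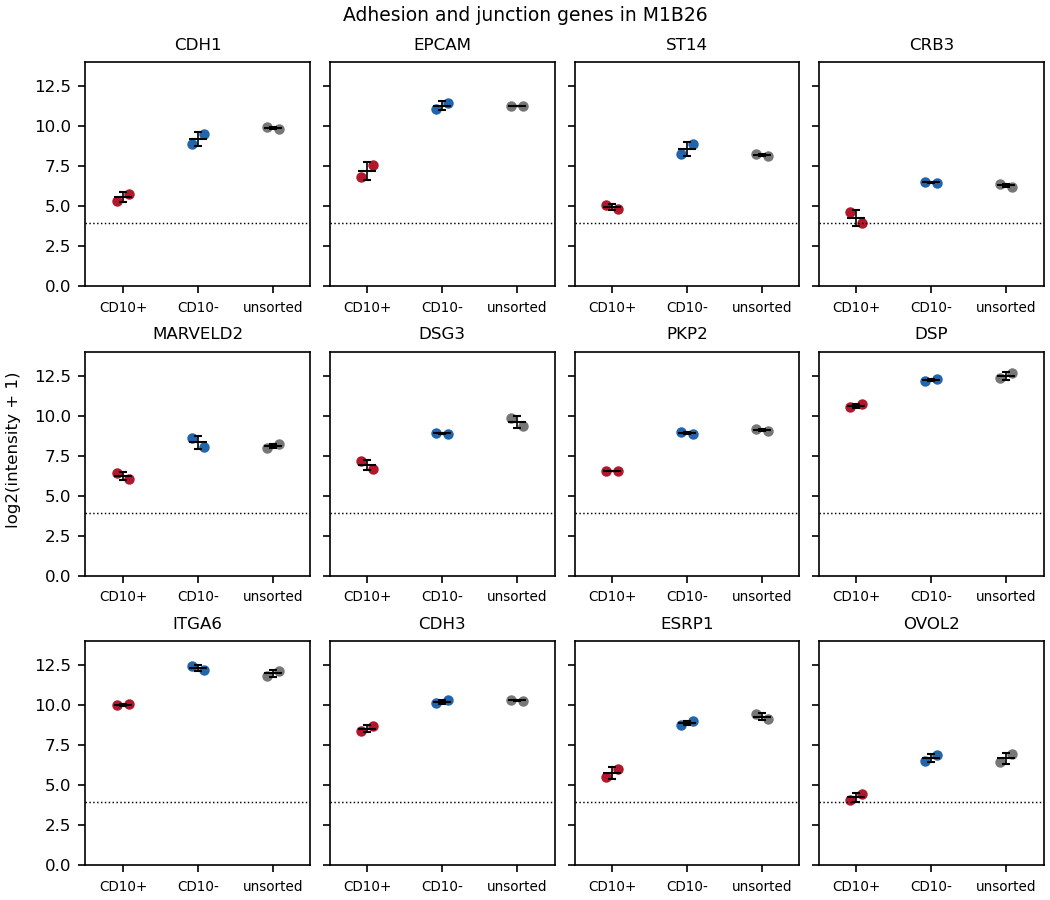
Log2 of intensity plus 1 in M1B26 for 12 adhesion and junction genes and their regulators, in which a point is 1 array and the mean ± SD over both arrays (n = 2) as a short line with error bars, for CD10+, CD10- and unsorted cells. The dotted line is the background level (3.93). In each panel both CD10+ arrays lie below both CD10- arrays, and the unsorted arrays lie near the CD10- arrays.

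EPCAM and the membrane protease that acts beside it moved with the junction genes. EPCAM, an epithelial adhesion molecule, had 111 and 190 in CD10+ cells, against 2173 and 2857 in CD10- cells, and fell by 4.09 ± 0.46 (17.0-fold, adjusted p = 5.86e-05). ST14, or matriptase, had 32.7 and 27.4 in CD10+ cells, against 310 and 468 in CD10- cells, and fell by 3.63 ± 0.35, and SPINT2, an inhibitor of matriptase, fell by 1.99. All 3 passed under each omission. The other 3 tested genes of this system did not pass, with the protease PRSS8 at -1.06 (adjusted p = 8.21e-05 with the pairing) and the inhibitor SPINT1 at 0.17. Other large decreases, all passing under each omission except HAS3, were the long RNA LINC01503 (-4.11), FAM83B (-3.48), the adhesion protein MPZL2 (-3.39), the plakin EPPK1 (-3.38), the hyaluronan synthase HAS3 (-3.38, up to 0.115 without CD10+ replicate 1, and 0.19 on another probe set), the transposon-derived factor ZBED2 (-3.11), S100A14 (-3.10) and the Wnt antagonist SFRP1 (-3.04). Near background in CD10+ cells lay the troponin TNNI2, the ATP receptor P2RY2, the sulphotransferase HS3ST1, the ubiquitin ligase CBLC (up to 0.0549 without CD10- replicate 2) and TMEM191A, with falls of at least 4.19, 4.12, 1.61, 9.96 and 2.70-fold.

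Among the transcription factors of epithelial-mesenchymal transition, 3 of 8 tested rose and none fell (median 0.65; 5 rose with the pairing). ZEB1 had 603 and 586 in CD10+ cells, against 123 and 51.4 in CD10- cells, and rose by 2.89 ± 0.38 (7.39-fold, adjusted p = 2.01e-04). ZEB2 had 232 and 313 in CD10+ cells, against 22.7 and 0.864 in CD10- cells, so that 1 CD10- array was above background and the other far under it. It was at least 17.7-fold higher (adjusted p = 0.00101). TWIST1 had 921 and 907 in CD10+ cells, against 355 and 218 in CD10- cells, and rose by 1.71 (adjusted p = 0.027, up to 0.226 without CD10- replicate 2). SNAI2, or Slug, was bright in both, with 2438 and 2877 in CD10+ cells, against 2884 and 1928 in CD10- cells, and these overlapped. TWIST2 and TCF4 had differences of 0.62 and 0.68 that passed with the pairing only (adjusted p = 0.0149 and 0.00878), and SNAI1 and SNAI3 lay under the filter on low values.

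Regulators of the epithelial state were mostly lower where they passed, with 7 of 17 tested falling, 2 rising and 8 not passing (median -1.26). The 7 include MIR205 and its host gene MIR205HG, entries of the same locus whose values are given further below. ESRP1, which sets epithelial splicing, had 44.3 and 64.5 in CD10+ cells, against 438 and 508 in CD10- cells, and fell by 3.12 ± 0.27 (adjusted p = 5.55e-06). OVOL2, a zinc finger repressor of ZEB genes, had 15.5 and 20.8 in CD10+ cells, against 91.2 and 115 in CD10- cells, and fell by 2.45 ± 0.29. TFAP2A, a factor of ectodermal genes, fell by 1.26, FOXA1, a luminal factor, was at least 2.73-fold lower and near background in CD10+ cells (up to 0.206 without CD10+ replicate 1), and GRHL1, a grainyhead factor of epithelia, fell by 1.27 (up to 0.189 without CD10+ replicate 1). The ETS factor EHF, also known from epithelia, rose by 2.97 ± 0.50 (adjusted p = 0.00173), with 649 and 258 in CD10+ cells, against 64.6 and 41.1 in CD10- cells. TFAP2C, a relative of TFAP2A, rose by 1.10 (up to 0.0951 without CD10+ replicate 2).

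The arrays read the transcripts around the microRNA genes and not the mature microRNAs printed above. The probe set named MIR205 had 35.3 and 14.9 in CD10+ cells, against 284 and 234 in CD10- cells, and fell by 3.43 ± 0.47 (adjusted p = 2.79e-04). That of the host gene MIR205HG fell by 2.87 (adjusted p = 0.0389, up to 0.205 without CD10+ replicate 2). MIR200CHG, the host of miR-200c and miR-141, had 15.9 and 2.34 in CD10+ cells, against 25.5 and 51.7 in CD10- cells. It was near background in CD10+ cells and did not pass (adjusted p = 0.0553, with the pairing 1.99e-12), so no size is given for its difference. Unsorted M1B26 cells had 1049 and 744 on the MIR205 probe set, above both sorted fractions.

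The E-box was counted over the promoters of all genes for which the RefSeq table held a window, 9915 of the tested genes, 374 of those that rose and 248 of those that fell. At least 1 match stood before the start of 99 of the genes that fell (39.9%), against 20.7% of all tested genes, while 85 of the genes that rose held one (22.7%). Genes that fell and genes that rose had 1.73 and 1.75 windows each and a median GC content of 63.6% and 62.8%, against 1.46 windows and 64.4% for all tested genes. Counted by window, the shares were 25.9% for genes that fell, 15.6% for genes that rose and 15.9% for all tested. Another E-box, CACGTG, stood before 11.3% of genes that fell, 9.63% of those that rose and 11.1% of all tested. These shares are given without a test, and what brings the letters there was not tested.

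Genes of the interstitial matrix were mostly higher where they passed. Of 24 tested collagens and other interstitial matrix genes 10 rose, 1 fell and 13 did not pass (median 1.25, against 0.008 over all genes), and 15 rose and 3 fell with the pairing. COL6A1, a chain of collagen VI, had 764 and 792 in CD10+ cells, against 48.5 and 33.2 in CD10- cells, and rose by 4.24 ± 0.39 (18.9-fold, adjusted p = 1.23e-05). COL6A3, another chain of it, had 1057 and 1664 in CD10+ cells, against 139 and 87.8 in CD10- cells, and rose by 3.57. Both chains were thus more than 10 times brighter in CD10+ cells on average. DCN, or decorin, a small proteoglycan that binds collagen, had 5162 and 5034 in CD10+ cells, against 235 and 176 in CD10- cells, and rose by 4.64 ± 0.75 (25.0-fold, adjusted p = 0.00117). The fibril-associated COL12A1 rose by 3.10, fibronectin (FN1) by 3.40 (up to 0.134 without CD10- replicate 2), fibrillin (FBN1) by 2.98, the collagen crosslinker LOX by 2.17 and the proteoglycan VCAN by 1.72 (up to 0.0525 without CD10- replicate 2). COL8A1, a short-chain collagen, fell by 2.01, with 250 and 181 in CD10+ cells, against 710 and 1042 in CD10- cells. The fibrillar COL1A1 had 120 and 182 in CD10+ cells, against 98.1 and 113 in CD10- cells, which did not pass (adjusted p = 0.741).

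Of 8 defining markers of fibroblasts, a cell type that also makes interstitial matrix, COL1A1 and DCN passed the filter on low values. COL3A1, PDGFRA, PDGFRB, THY1 and COL1A2 had at most 24.75 on any of the 4 arrays. LUM, which encodes lumican, was the exception under the filter, with 517 and 593 in CD10+ cells, against 45.7 and 15.4 in CD10- cells. Their summed intensity was 5878 and 5866 in CD10+ cells, against 403 and 352 in CD10- cells, most of it DCN. Whether cells of that type took part was not tested. Of 15 measured markers of leukocytes, endothelium and red cells 6 passed the filter, and none of these passed limma's test (2 at an unadjusted p under 0.05, and 1 higher and 1 lower with the pairing). Of the 15, 5 stayed under the background level on all 4 arrays, among them PTPRC, SPI1 and CDH5, which mark leukocytes, myeloid cells and endothelium. Others of these cell types lay above it. The leukocyte marker CD14 had 133 and 156 in CD10+ cells, against 380 and 279 in CD10- cells. Of the endothelial markers, PECAM1 had 37.6 and 37.9, against 33.8 and 35.4, and TEK 40.2 and 43.4, against 17.9 and 1.56. The 15 summed to 369 and 416 in CD10+ cells, against 601 and 557 in CD10- cells.

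Of 14 genes of the mesenchymal cytoskeleton and surface 4 rose and none fell (median 0.73; 7 and 1 with the pairing). The calcium-binding protein S100A4 had 4089 and 3763 in CD10+ cells, against 498 and 331 in CD10- cells, and rose by 3.27 ± 0.38 (adjusted p = 8.18e-05). The tropomyosins TPM2 and TPM1 rose by 1.07 and 1.43 (up to 0.254 without CD10- replicate 2), and the myosin kinase MYLK was at least 3.74-fold higher from near background (up to 0.2 without CD10+ replicate 1). Smooth muscle actin, ACTA2, had 611 and 461 in CD10+ cells, against 276 and 249 in CD10- cells, a difference of 1.02 that passed with the pairing only (adjusted p = 1.42e-05). The receptor kinase AXL, with 1.36, did likewise (adjusted p = 4.16e-10).

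Among the matrix proteases, PAPPA, which cuts IGF-binding proteins, had 1698 and 1906 in CD10+ cells, against 94.5 and 24.3 in CD10- cells, and rose by 5.20 ± 0.64 (36.6-fold, adjusted p = 1.35e-04). MMP2, a gelatinase, rose by 2.30 (up to 0.306 without CD10+ replicate 1), and the inhibitors TIMP2 and TIMP1 by 1.38 (up to 0.133 without CD10- replicate 2) and 0.83 (up to 0.207 without CD10+ replicate 2). ADAMTS1 fell by 1.80 (up to 0.203 without CD10- replicate 1). Together 4 of 16 rose and 1 fell (median 0.11). Of 9 membrane peptidases, the class to which CD10 belongs, CPM, a carboxypeptidase, rose beside MME by 2.64 (up to 0.135 without CD10+ replicate 2), and the aminopeptidase ANPEP had a difference of 0.58 that passed with the pairing only (adjusted p = 0.0157). With the pairing 3 of the 9 rose and 1 fell.

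Signals of the TGF-beta family were read next, as ligands, latency proteins and mediators. All 17 tested members had a difference above 0 (median 0.32), 4 rose and none fell, and 7 rose with the pairing. The ligand TGFB2 had 819 and 682 in CD10+ cells, against 34.4 and 24.8 in CD10- cells, and rose by 4.63 ± 0.44 (24.7-fold, adjusted p = 1.33e-05). TGFB1, a second ligand, had 297 and 385 in CD10+ cells, against 193 and 139 in CD10- cells, a difference of 1.04 that passed with the pairing only (adjusted p = 3.34e-05). The latency proteins LTBP3 and LTBP1 rose by 1.59 (up to 0.11 without CD10- replicate 2) and 0.80 (up to 0.332 without CD10- replicate 2), although another LTBP3 probe set gave -1.16, and the mediator SMAD3 rose by 1.43 (up to 0.0819 without CD10+ replicate 2). Of 19 genes of the BMP pathway, the pathway with which the line was made, 1 rose, none fell and 18 did not pass (median 0.15). With the pairing 4 rose and 1 fell. Over all tested genes 6.5% differed in the main fit and 21.1% with the pairing, so these counts lie near the general share. The one that rose in the main fit was BMP1 (2.14 ± 0.29), which is a protease that trims procollagen and not a BMP ligand. The receptors ACVR1 and BMPR2 had differences of 0.59 and 0.48, of which the first passed with the pairing (adjusted p = 0.0237).

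WNT5A, a non-canonical Wnt ligand, had 2836 and 3610 in CD10+ cells, against 222 and 135 in CD10- cells, and rose by 4.20 ± 0.42 (18.4-fold, adjusted p = 2.18e-05). With FZD7, a Wnt receptor (1.57, up to 0.224 without CD10+ replicate 2), it was 1 of 2 Wnt genes of 15 that rose, and SFRP1, given above, was the 1 that fell (5 rose and 3 fell with the pairing). Of 12 Notch genes 3 fell and 1 rose (5 and 5 with the pairing), with the ligands DLL1 and JAG1 lower by 1.94 (up to 0.239 without CD10+ replicate 2) and 1.32 (up to 0.224 without CD10+ replicate 2), HES2 lower by 1.29 (up to 0.406 without CD10+ replicate 1) and the coactivator MAML2 higher by 1.01 (up to 0.21 without CD10- replicate 2). In the EGF family 3 of 9 fell and none rose, while 4 fell and 2 rose with the pairing. The 3 were the ligands HBEGF (-2.58, up to 0.205 without CD10+ replicate 1) and TGFA (-1.61, up to 0.174 without CD10+ replicate 2) and the receptor ERBB3, which was near background in CD10+ cells at 9.33 and 10.97, against 29.3 and 60.6 in CD10- cells (up to 0.0599 without CD10- replicate 2).

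Of 10 tested genes of the interleukin-1 family 5 rose, all of them receptors, and 2 fell, a ligand and a receptor subunit (5 rose and 4 fell with the pairing). IL1R2, a decoy that binds interleukin-1 without signalling, had 8935 and 7839 in CD10+ cells, against 302 and 190 in CD10- cells, and rose by 5.12 ± 0.63 (34.8-fold, adjusted p = 1.22e-04). IL1R1, the signalling receptor, had 1627 and 1553 in CD10+ cells, against 204 and 132 in CD10- cells, and rose by 3.27. IL1RL1, the receptor of interleukin-33, had 1308 and 2407 in CD10+ cells, against 67.0 and 55.3 in CD10- cells, and rose by 4.84. Both the decoy and the signalling receptor were thus higher in CD10+ cells. SIGIRR and IL18R1 rose by 2.31 and 2.01. The ligand IL1A had 638 and 791 in CD10+ cells, against 2023 and 2324 in CD10- cells, and fell by 1.61 (adjusted p = 0.021, up to 0.167 without CD10+ replicate 1), and the coreceptor IL1RAP fell by 0.99 (up to 0.306 without CD10- replicate 1).

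Acute-phase and complement genes were higher, with 7 of 14 tested rising and none falling (median 1.71; 10 rose with the pairing). SERPINA3, an acute-phase inhibitor of proteases, had 5027 and 5508 in CD10+ cells, against 207 and 166 in CD10- cells, and rose by 4.82 ± 0.51 (28.2-fold, adjusted p = 3.5e-05). The central complement component C3 had 5853 and 5840 in CD10+ cells, against 1767 and 835 in CD10- cells, and rose by 2.27. C1R and C1S, the proteases that start the classical pathway, rose by 1.84 (up to 0.0763 without CD10+ replicate 1) and 2.15 (up to 0.0697 without CD10+ replicate 1), and CFB of the alternative pathway by 1.77 (up to 0.136 without CD10+ replicate 2). Among receptors and mediators of IL6, with which the cells were treated, 1 of 20 rose and 2 fell (3 and 3 with the pairing). IL6R fell by 1.75 ± 0.35 (adjusted p = 0.00557, up to 0.0508 without CD10- replicate 1), with 47.9 and 47.5 in CD10+ cells, against 177 and 150 in CD10- cells. The target SOCS2 fell by 0.82 (up to 0.214 without CD10- replicate 1), the kinase JAK2 rose by 1.56 (up to 0.294 without CD10- replicate 2), and SOCS3 had a difference of -1.59 that passed with the pairing only (adjusted p = 5.98e-10).

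Chemokines and NF-kB targets had 6 of 23 higher and 1 lower (median 0.40; 11 and 1 with the pairing). CXCL3, which draws neutrophils, had 3119 and 3487 in CD10+ cells, against 263 and 289 in CD10- cells, and rose by 3.58 ± 0.58 (adjusted p = 0.00117). CXCL8, of the same kind, had 7829 and 7385 in CD10+ cells, against 1273 and 956 in CD10- cells, and rose by 2.78 (adjusted p = 0.00818, up to 0.0867 without CD10- replicate 2). PF4, a chemokine better known from platelets, had 1294 and 1497 in CD10+ cells, against 58.6 and 52.9 in CD10- cells, and rose by 4.62 ± 0.30 (24.6-fold, adjusted p = 3.32e-07). Its replicates lay close together in both groups. TNFAIP6, a hyaluronan-binding protein, rose by 4.51. In prostaglandin signalling the genes went both ways, 2 higher and 2 lower of 13. PTGFR, the receptor of prostaglandin F, had 310 and 221 in CD10+ cells, against 1.72 and 11.1, near background, in CD10- cells. It was at least 17.2-fold higher (adjusted p = 5.41e-05). PTGS2, the inducible cyclooxygenase, rose by 2.06 (up to 0.156 without CD10+ replicate 1), while PTGS1 (-1.31, up to 0.185 without CD10+ replicate 2) and the receptor PTGER4 (-1.98 ± 0.36) fell.

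FPR1, a receptor that senses formylated peptides and is known from neutrophils, had the widest difference among genes above background in both groups. It had 4275 and 3788 in CD10+ cells, against 87.0 and 40.5 in CD10- cells, and rose by 6.06 ± 0.79 (66.6-fold, adjusted p = 2.02e-04). The adhesion molecule CADM3 (5.62), the glycosyltransferase GALNT15 (5.36), PRR16 (5.12) and CSGALNACT1 (4.41), which starts chondroitin sulphate chains, followed among the 15 widest increases not given above or below. Each of these 5 passed under every omission. Near background in CD10- cells lay CLIC3, a chloride channel protein with 128 and 145 in CD10+ cells, against 2.28 and 2.40 in CD10- cells (at least 9.01-fold higher), the phosphodiesterase PDE7B (at least 14.3-fold, up to 0.0616 without CD10- replicate 2) and the syndecan SDC2 (at least 15.8-fold, up to 0.0696 without CD10- replicate 2).

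**Figure D3:**
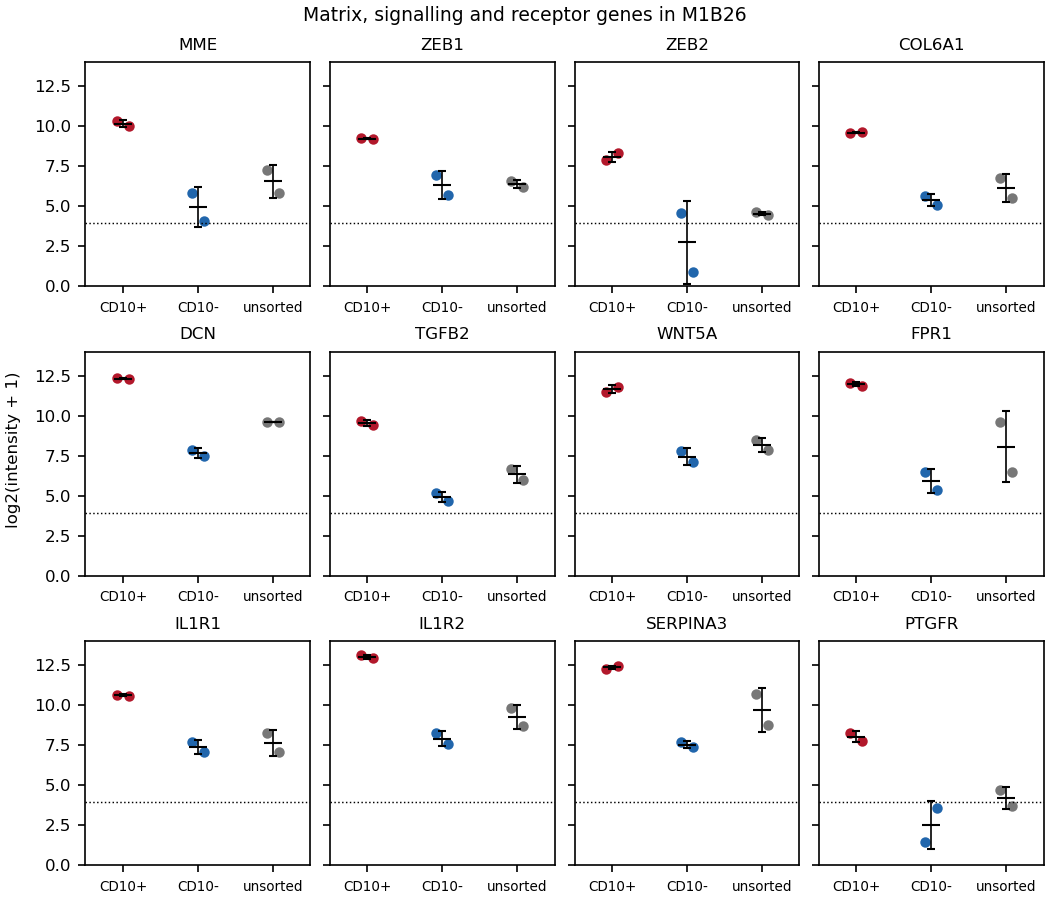
Log2 of intensity plus 1 in M1B26 for 12 matrix, signalling and receptor genes, in which a point is 1 array and the mean ± SD over both arrays (n = 2) as a short line with error bars, for CD10+, CD10- and unsorted cells. The dotted line is the background level (3.93). In each panel both CD10+ arrays lie above both CD10- arrays, and CD10- arrays lie below background for ZEB2 (replicate 2) and PTGFR (both).

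Several programmes held no calls with limma, against 6.5% of all tested genes, while others in this paragraph held some. With limma none of 37 genes of the G2-M phase passed (median -0.03, 0 at an unadjusted p under 0.05), although 1 rose and 3 fell with the pairing. None of 26 of the G1-S phase passed (median -0.38, 1 at an unadjusted p under 0.05). Of these 25 had a difference below 0, and 8 fell with the pairing. Of 9 markers used for mammary stem and progenitor cells none passed (2 at an unadjusted p under 0.05), and 1 rose and 3 fell with the pairing. CD24, 1 of the 9, had 188 and 112 in CD10+ cells, against 460 and 446 in CD10- cells, a difference of -1.64 that passed with the pairing only (adjusted p = 1.31e-13). Of 29 genes of the hypoxia response and glycolysis 4 rose, 9 with the pairing, and none fell in either fit. The smallest p was that of the mitophagy receptor BNIP3L (1.81 ± 0.28, adjusted p = 9.5e-04). Of 22 interferon-stimulated and MHC class I genes 4 rose and none fell (9 and 1 with the pairing), and each of the 4 was lost under at least 3 of the omissions, with HLA-B at 0.97 (up to 0.25 without CD10+ replicate 2). Of 16 p53 targets 6 rose and 1 fell with the pairing. Without it TP53INP1 rose by 1.29 (up to 0.231 without CD10+ replicate 1) and SFN, the epithelial 14-3-3 protein, fell by 1.72 ± 0.17 (adjusted p = 1.47e-05). ENI10 is a signature drawn by the study from MCF10A-CT arrays of this series, so it is not independent of these data. Of its 153 tested genes 32 rose and 1 fell (58 and 10 with the pairing). Over all tested genes 3.76% rose and 2.74% fell. Of the 50 ENI10 genes that serve cell division none passed, against 1 at an unadjusted p under 0.05 and 5 with the pairing.

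The difference was set against that between CD10+ and CD10- cells of the other lines. Both comparisons share the M1B26 arrays. Tested directly, the CD10 difference of M1B26 departed from that of MCF10A-CT in 168 genes (1.38% of those tested), with 81 differences more positive (0.666%) and 87 more negative (0.715%). From that of MC26 it departed in 154 genes (1.27%), 80 more positive (0.657%) and 74 more negative (0.608%). With the pairing on the sorted arrays these were 1404 and 1328. For CDH1 the CD10 difference was -3.64 in M1B26, against -0.18 in MCF10A-CT (adjusted p = 1.27e-04 for the gap) and -0.30 in MC26 (adjusted p = 1.63e-04). COL6A1 had 4.24 in M1B26, against 0.37 and 0.61 in MCF10A-CT and MC26 (adjusted p = 0.0027 and 0.00345), and ZEB1 2.89, against 0.48 and 0.38 (adjusted p = 0.0372 and 0.0301). The gap was thus past the threshold for these 3 genes in both lines. For MME the gaps did not pass (adjusted p = 0.173 and 0.207), nor for DCN, with 4.64 in M1B26, against 1.67 in MCF10A-CT and 1.51 in MC26 (adjusted p = 0.256 and 0.216). IL1RL1 had 4.84 in M1B26, against 1.95 in MCF10A-CT (adjusted p = 0.105) and 0.76 in MC26 (adjusted p = 0.0168). Over the 458 genes that rose, the median CD10 difference was 1.54 in M1B26, against 0.03 in MCF10A-CT and 0.002 in MC26. Over the 333 that fell it was -1.57, against -0.11 and -0.15, while all tested genes had medians of -0.05 in MCF10A-CT and -0.10 in MC26. Both sets were chosen by their M1B26 difference, so the M1B26 medians follow from that choice and are no test between lines. In MCF10A-CT 3.06% of the 458 and 0.601% of the 333 reached 2-fold in the same direction, against 0.97% of all tested genes. In MC26 these shares were 1.53% and 0.601%, against 0.707% of all tested genes.

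Unsorted M1B26 cells lay nearer to the CD10- fraction in most genes that differed. On a linear scale with the CD10- mean at 0 and the CD10+ mean at 1, the 458 genes that rose had a median position of 0.158 in unsorted replicate 1 and 0.0484 in replicate 2. The 333 genes that fell had 0.209 and 0.0984. Unsorted cells were nearer to the CD10- mean in 390 and 424 of the 458 genes and in 244 and 291 of the 333. These positions do not give the share of CD10+ cells in M1B26. The study measured that share separately by flow cytometry and reported CD10+ cells as slightly more frequent than CD10- cells. Why the unsorted arrays lay so near the CD10- mean was not tested. FPR1 had 795 and 89.2 in unsorted cells and SERPINA3 1657 and 428, so replicate 1 lay higher. Not all genes followed this order, since CYP1B1, a monooxygenase with 1924 and 1966 in CD10+ cells, against 261 and 154 in CD10- cells, had 1243 and 951 in unsorted cells. Among the CD10- arrays, replicate 1 was the higher one in 41 of the 51 genes that rose by at least 8-fold. Over all tested genes it was higher in 8490 of 12171 (69.8%). Among the CD10+ arrays, replicate 1 was higher in 10 of the 25 genes that fell by at least 8-fold, against 45.8% of all tested genes. Unsorted cells were not stained or sorted, so this handling and the presence of both fractions cannot be told apart there, and the purity of the sorts was not tested.

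**Figure D4:**
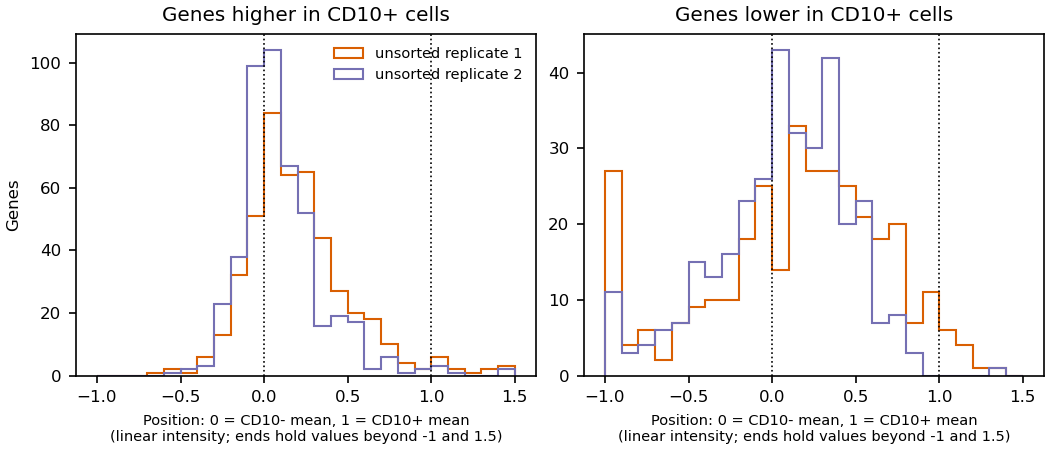
Position of each unsorted M1B26 array between the CD10- mean (0) and the CD10+ mean (1) on the linear intensity scale, for genes that rose (left, 458 genes) and fell (right, 333 genes) in CD10+ cells; the vertical axis counts genes in bins of 0.1, with positions beyond -1 and 1.5 put in the end bins. Most genes lie nearer to 0 than to 1, with medians of 0.158 (replicate 1) and 0.0484 (replicate 2) on the left and 0.209 and 0.0984 on the right, where the spread is wider.

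One stretch of the genome stood out when the genes were put in order along the chromosomes. Medians were taken in 572 windows of 40 tested genes, moved by 20. At the upper end, the highest window in M1B26 lay on chromosome 20 (LOC101927098 to ZNF335). Its median was 0.37, with 4 genes higher and 0 lower, and the next highest, on chromosome 17, had 0.26. The 3 lowest windows in M1B26 were the first 3 of chromosome 6, with medians of -0.54, -0.78 and -0.62, and the next lowest, on chromosome 4, had -0.24. Together they hold the first 80 tested genes of the chromosome, DUSP22 to ACOT13, of which 71 had a difference below 0 (median -0.58), 17 fell and 1 rose (22.5% called, against 6.5% of all genes). The 80 genes that follow had a median of -0.03, with 2 lower and 3 higher. DSP and TFAP2A, given above, lie in the stretch. So do RNF144B, a ubiquitin ligase, which fell by 1.87 ± 0.18, and MBOAT1, a lysophospholipid acyltransferase, with 34.9 and 46.0 in CD10+ cells, against 204 and 251 in CD10- cells. NEDD9, a docking protein of focal adhesions, was the 1 that rose. It had 80.4 and 81.0 in CD10+ cells, against 8.78 and 14.2, near background, in CD10- cells, although another of its probe sets gave -0.034.

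The stretch was chosen after its values were seen and is described without a test. Its median CD10 difference was -0.05 in MCF10A-CT and -0.13 in MC26. Relative to each array's median over all genes, and to each gene's mean over the 18 arrays, it stood at -0.22 and -0.23 in CD10+ M1B26 cells, against 0.26 and 0.61 in CD10- and 0.35 and 0.46 in unsorted M1B26 cells. The 12 arrays of the other lines ranged from -0.24 to -0.01. CD10+ M1B26 cells were thus at the lower end of the other lines, and CD10- and unsorted M1B26 cells were above all of them. Without these 80 genes 316 genes fell, and 41.5% of those with a promoter window held the E-box. The cause was not tested.

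**Figure D5:**
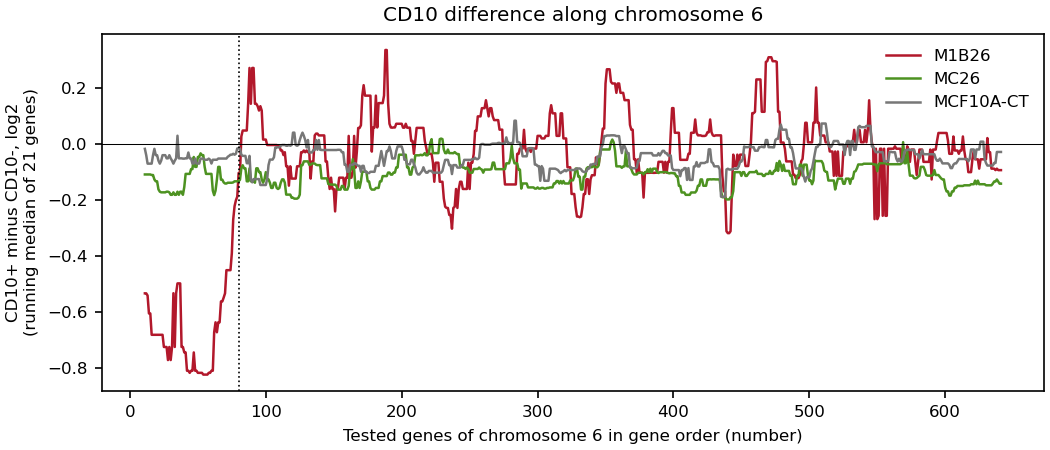
Running median over 21 tested genes of the CD10+ minus CD10- difference (log2 of intensity plus 1) along chromosome 6, with genes numbered in their order on the chromosome, for M1B26, MC26 and MCF10A-CT. The dotted line marks the end of the first 80 genes, whose median is -0.58 in M1B26, against -0.05 in MCF10A-CT and -0.13 in MC26.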

How the data were processed

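The authors measured total RNA on Affymetrix U133 Plus arrays and deposited linear intensities, 1 per probe set and array. Per the labels' processing notes these were made with Expression Console and MAS5 (no versions given), with equal medians on all arrays (16.7), whereas the methods name RMA. Of 54675 probe sets 41091 had 1 gene in GEO's annotation, updated through RefSeq. Each of 19775 genes was read by its probe set with the highest mean, as log2(intensity + 1), and 12171 above the median probe set were tested. The number of arrays limits the precision, with a median standard error of 0.296. Groups came from the labels, and limma 3.58.1 (R 4.3.3; lmFit, eBayes with an intensity trend) fitted 9 group means over 18 arrays, two-sided, with Benjamini-Hochberg adjustment per contrast. Code was tested on simulated data. As alternatives, normalization, centring, pseudocount, filter, choice of probe set, trend, arrays and pairing were varied.

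Deviations of same-numbered CD10+ and CD10- arrays from their group means correlated at 0.185 in M1B26, 0.635 in MCF10A-CT and 0.361 in MC26, so the numbers were taken to pair the sorted arrays. In M1B26 the CD10+ and unsorted arrays correlated at 0.122 in the same way, so the pairing was least clear in this line. With 2 replicates, both pairs of a line share 1 such value.

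The members, 36 gene lists and rule for named genes were chosen with earlier results of these data known. Named were the 15 widest changes each way above background, 5 each way near background, 5 each way for each difference between lines, up to 8 genes per list by p, and MME, CDH1, EPCAM, ZEB1, COL6A1 and BMPR1B. Others, such as MIR200CHG, CLDN7, GRHL1, FN1 and the genes of the chromosome 6 stretch, were chosen after their values were seen. Probe sets that may also bind related transcripts (names ending in _s_at or _x_at) were kept. List genes without a probe set of their own were not analysed here.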

Additional observations from a re-analysis of the deposited data

Results flagged for a closer look

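The CD10 difference differed between lines in a direct test in 168 genes for M1B26 minus MCF10A-CT and in 154 genes for M1B26 minus MC26 (limma, adjusted p under 0.05). The genes chosen by fitted gap to MCF10A-CT, on the log2 scale, were on the higher side GLIS1 (5.39), PRR16 (5.33), ZEB2 (5.20), FPR1 (4.84) and CADM3 (4.77). On the lower side they were MIR205 (-3.66), EPCAM (-3.81), P2RY2 (-4.17), HS3ST1 (-4.38) and TNNI2 (-4.41). For MC26 they were FPR1 (6.57), CLIC3 (6.20), ZEB2 (5.73), PTGFR (5.46) and GALNT15 (5.00) on the higher side. On the lower side they were SLC26A6 (-3.65), EPCAM (-3.65), P2RY2 (-3.98), MIR205 (-4.10) and TNNI2 (-4.81). In all of them both replicate-numbered CD10 differences of M1B26 lay beyond both of the other line. Many of these gaps use a group mean at or under the background level, and their fitted size then gives neither a magnitude nor an order. For the gap to MCF10A-CT this holds for GLIS1, ZEB2, CADM3, P2RY2, HS3ST1 and TNNI2, and for the gap to MC26 for CLIC3, ZEB2, PTGFR, SLC26A6, P2RY2 and TNNI2. The means of PRR16, FPR1, MIR205 and EPCAM against MCF10A-CT, and of FPR1, GALNT15, MIR205 and EPCAM against MC26, lay above that level in all 4 groups compared. The CD10 difference within M1B26 lost its call for GLIS1 without CD10+ replicate 2 (adjusted p = 0.0603) and for SLC26A6 under 3 of the 4 omissions (up to 0.354, without CD10+ replicate 2).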

How the results depend on the processing

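Counts of genes that differed moved by over 1.5 times from 791 with the replicate block on the sorted arrays (2564) and with the 4 sorted M1B26 arrays alone (1389). From 168 for M1B26 minus MCF10A-CT they moved to 314 with the replicate block on all arrays and 1404 with it on the sorted arrays, and from 154 for M1B26 minus MC26 to 316 and 1328. The block added genes and removed no call among the 144 called genes that were named by rule. Leaving out 1 array gave 369 to 600 genes for the CD10 difference in M1B26, 69 to 195 for M1B26 minus MCF10A-CT and 68 to 166 for M1B26 minus MC26. The other settings, 12 sorted arrays without the block among them (chosen after seeing the data), gave 686 to 1150, 119 to 199 and 127 to 201. Of the 144 genes, 109 kept their call under every such setting and 80 under every omission of 1 array. Of 136 other probe sets above background for 83 of them, 130 had the same direction and 6 the opposite one. These were 0.63, 0.37 and 0.0527 for DST, 0.19 for HAS3, -1.16 for LTBP3 and 0.27 for PATJ, and BMPR1B, which was not called, had 0.25 on another probe set, and NEDD9 -0.034. The causes were not tested. Probe sets near background limit the size of a fold.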

Other observations

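Genes under the filter on low values were also looked at, since the filter used the mean over all 18 arrays and could hide genes bright in 1 group alone. Of 7604 such genes, 68 passed when every gene was tested, 60 higher and 8 lower in CD10+ M1B26 cells. The genes named here were chosen after their values were seen. ACKR1, a decoy receptor of chemokines, had 231 and 155 in CD10+ cells, against 3.81 and 1.90 in CD10- cells. EBF1, a transcription factor known from B cells and fat cell precursors, had 172 and 143 in CD10+ cells, against 10.3 and 4.10 in CD10- cells. LUM had an adjusted p of 0.0243 in that fit, and CCDC102B had 217 and 228 in CD10+ cells, against 8.82 and 9.46 in CD10- cells. GGT5, a gamma-glutamyltransferase of the leukotriene pathway, had 79.3 and 106 in CD10+ cells, against 1.46 and 1.34 in CD10- cells.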
